A study of Mus musculus with 4 samples.

Results

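The genes described here are 39 genes of the integrated stress response and of transfer RNA (tRNA) charging, chosen by symbol from a list of names; the rule itself uses no measured value, although the list was drawn up with earlier results of these data known. All 39 had a row among the 20377 genes of the deposited table. By role they were 3 transcription factors (Atf4, Atf5 and Ddit3), 5 stress-induced effectors (Ddit4, Trib3, Asns, Chac1 and Sesn2), 2 regulatory subunits of the eIF2 phosphatase (Ppp1r15a and Ppp1r15b), 4 eIF2α kinases (Eif2ak1 to Eif2ak4), 5 genes of serine synthesis and the mitochondrial folate pathway (Phgdh, Psat1, Psph, Shmt2 and Mthfd2) and 20 genes of cytosolic aminoacyl-tRNA synthetases.

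The study sequenced RNA of rGBC2 cells, which were made from primary mouse gallbladder cells and had switched on an insulin reporter. The donor mice were 8 weeks old, on a C57BL/6 background, and carried B6.Cg-Tg(Ins1-EGFP)1Hara/J, known as MIP-GFP, in which an Ins1 promoter drives a green fluorescent protein. All cells received Pdx1, Ngn3, Mafa and PAX6, as well as compounds that the labels do not name, over 10 days, and fluorescent cells were sorted for RNA. The 4 libraries form 1 group, with no untreated or native beta cells among the samples used here. The labels do not say whether they came from separate animals or cultures. Reads of 4 Y-linked genes were present in replicates 1 and 2 and at 0 in replicates 3 and 4. The libraries were therefore not all repeats of 1 cell preparation, although the spread within either pair may be technical.

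In the integrated stress response, each of 4 kinases senses a different stress and phosphorylates the translation initiation factor eIF2α, which lowers protein synthesis while the Atf4 messenger RNA is translated more through its upstream reading frames. ATF4 protein then activates genes for amino acid synthesis and uptake and for aminoacyl-tRNA synthetases, the enzymes that load each tRNA with its amino acid. ATF4 often acts as a dimer with a C/EBP protein on a composite element, and pancreatic beta cells, which make large amounts of proinsulin, are known to depend on the endoplasmic reticulum kinase of this pathway. Since ATF4 is controlled largely in translation, the level of its transcript does not measure the activity of the protein.

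The composite element has the core TGATGNAA, and its occurrences near the starts of these genes are shown because they are the sequence that ATF4 dimers are known to read. Promoters of RefSeq genes in build GRCm38.p6, 250 bases before to 50 after each start, were at hand for 31 of the 39 genes. The core was searched on both strands and occurred in 8 of their 34 promoters (23.5%), against 1304 of all 32851 promoters (3.97%). For each of the 8 genes the occurrence nearest the start is given along the strand that holds the core, 5′ to 3′, with the core in capitals and 10 bases on either side.
Asns, chr6:7693215-7693242, minus strand: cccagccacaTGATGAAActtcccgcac
Gars, chr6:55037961-55037988, minus strand: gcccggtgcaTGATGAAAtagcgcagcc
Chac1, chr2:119351039-119351066, minus strand: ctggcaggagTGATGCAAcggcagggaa
Trib3, chr2:152344029-152344056, plus strand: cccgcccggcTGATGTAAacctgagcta
Yars, chr4:129189896-129189923, plus strand: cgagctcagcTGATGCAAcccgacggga
Aars, chr8:111033841-111033868, minus strand: cagagcgctcTGATGAAAagtgacccgc
Iars, chr13:49682127-49682154, minus strand: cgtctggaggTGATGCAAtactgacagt
Tars, chr15:11399656-11399683, plus strand: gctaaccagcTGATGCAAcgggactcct

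Of these 8 occurrences, 7 began between positions -30 and 15 relative to the gene's start, counted from 1 at the first transcribed base, while that of Chac1 began at -193. In Asns and Yars the core read along the gene, and in the other 6 genes it read against it. The variable base was C in 4 occurrences, A in 3 and T in 1. The promoters of the 2 most abundant genes with the core, Gars and Asns, are given whole along the gene; in Gars the capitals show the core's reverse complement, because the core lies on the opposite strand.
Gars promoter, chr6:55037751-55038050, plus strand: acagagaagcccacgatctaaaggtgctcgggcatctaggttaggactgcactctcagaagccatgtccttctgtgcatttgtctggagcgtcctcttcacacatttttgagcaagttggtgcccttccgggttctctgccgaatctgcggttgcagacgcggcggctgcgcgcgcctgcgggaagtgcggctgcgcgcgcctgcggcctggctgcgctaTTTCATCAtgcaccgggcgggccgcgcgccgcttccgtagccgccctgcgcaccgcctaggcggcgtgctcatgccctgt
Asns promoter, chr6:7693160-7693459, minus strand: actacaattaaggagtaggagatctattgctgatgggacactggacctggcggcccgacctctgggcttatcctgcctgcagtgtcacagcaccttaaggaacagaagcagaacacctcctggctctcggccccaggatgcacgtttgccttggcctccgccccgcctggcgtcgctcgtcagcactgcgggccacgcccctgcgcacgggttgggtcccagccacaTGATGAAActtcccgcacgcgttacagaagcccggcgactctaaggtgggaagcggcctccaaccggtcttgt

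Other motifs were rarer. The cyclic AMP response element TGACGTCA, a site of ATF and CREB factors, was found in the promoter of Ppp1r15a alone (2.94% of the 34 promoters, 1.79% of all), and the E-box CACGTG in those of Aars, Farsb, Iars and Tars (11.8% and 7.15%). The 8 genes with the TGATGNAA core had a median level of 42.4 RPKM (reads scaled to transcript length and library size), with a range of 9.77 to 152.6 RPKM, and the 23 genes with a promoter but no core had 44.2 RPKM, with a range of 10.7 to 175 RPKM. These ranges overlap almost wholly. A match is a description of the sequence and not evidence that a factor bound there.

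**Figure D1:**
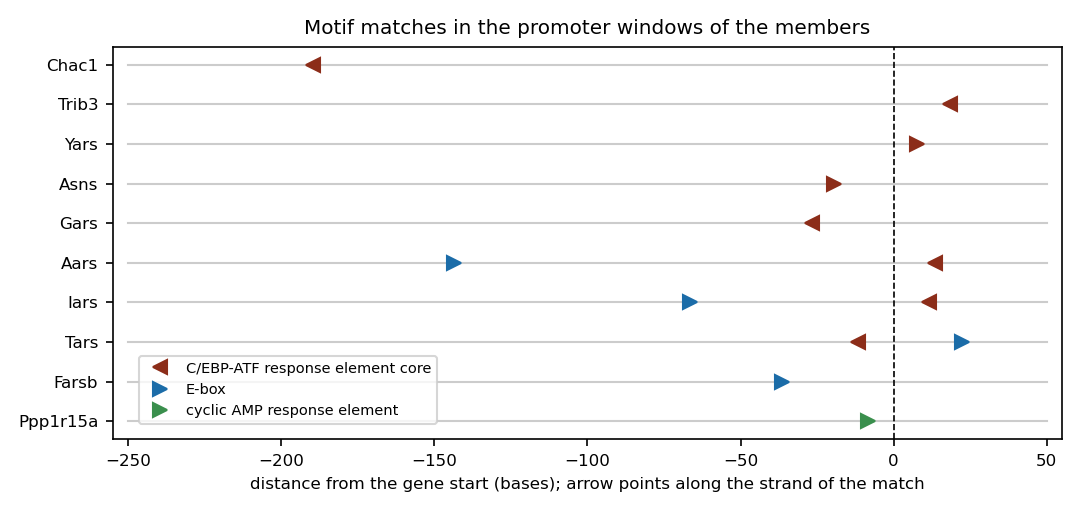
Motif matches in the promoter windows of the genes that hold any, plotted by distance from the gene start in bases; each triangle is the match nearest the start, coloured by motif and pointing along the strand of the match. The TGATGNAA core lies between -30 and 15 at first base in all genes but Chac1, whose match lies at -193.

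The reprogrammed cells transcribed the whole set at moderate to high levels. All 39 genes lay above 1 RPKM, a level passed by 65.0% of the 16919 genes tested, and 36 of 39 lay above 10 RPKM, a level passed by 35.9% of them (limma's moderated test on log2(RPKM + 1), two-sided, Benjamini-Hochberg adjusted p under 0.05 over all genes tested). None of the 39 lay below 10 RPKM, where 48.2% of the genes tested lay. Trib3 (adjusted p = 0.614), Eif2ak2 (0.716) and Phgdh (0.159) could not be placed on either side of 10 RPKM in limma's test. The median of the gene means was 43.0 RPKM, against 7.38 RPKM over all genes tested, and the extremes were Trib3 at 9.77 and Sars at 175 RPKM. Values of single genes are per kilobase of transcript, which allows for length when genes are compared. Such comparisons are limited by GC content, with which the libraries differ, and by sequence shared between genes, both described below. In such bulk samples fewer cells of a type and less RNA per cell cannot be told apart.

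**Figure D2:**
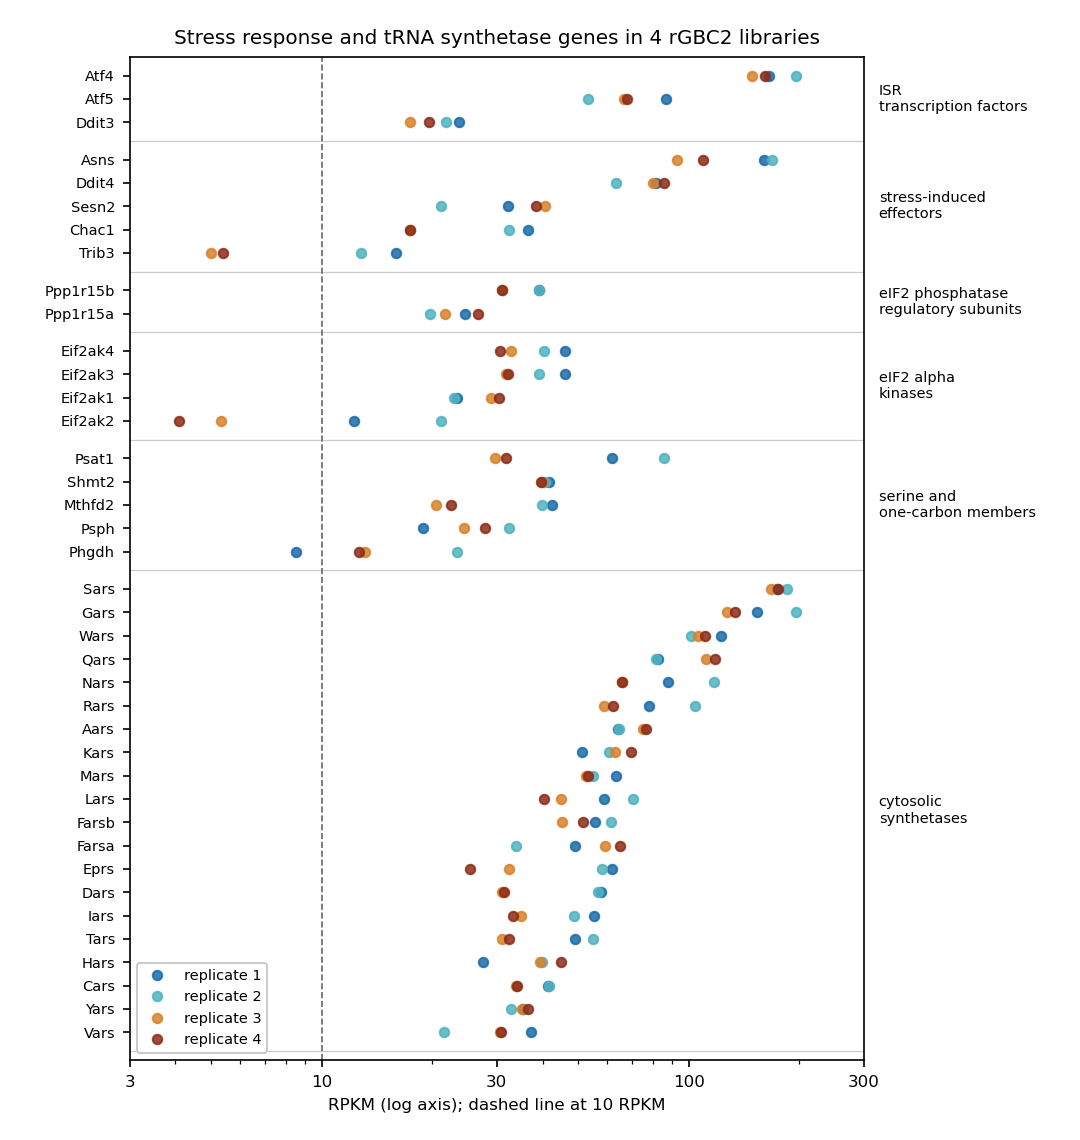
RPKM of the 39 genes (log axis) in the 4 rGBC2 libraries, 1 point per library, grouped by role with the most abundant gene of each role at the top; the dashed line marks 10 RPKM. Sars, Atf4, Gars and Asns stand near the right edge, and only Trib3, Eif2ak2 and Phgdh have points left of the line.

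The libraries bear on these values in several ways. The estimated depth was 22.1 M to 32.8 M reads, so that 3 reads on a 1-kilobase transcript correspond to 0.0915 to 0.136 RPKM, far below every value of the 39 genes. Replicates 3 and 4 lay closer to each other (chi-square per degree of freedom 13.4 on estimated reads) than any other pair (140 to 345), yet farther apart than sampling noise, which would give 1, and they were kept as separate libraries. Reads of 4 Y-linked genes were present in replicates 1 and 2, with Eif2s3y at 48.5 and 44.7 RPKM, and these genes were listed at 0 in replicates 3 and 4. Of 6 beta-cell markers, 4 were above 1 RPKM in every library, whereas Nkx6-1 and Ucn3 did not exceed 0.14 RPKM in any; 5 of 6 biliary markers were also above 1 RPKM throughout, the exception being Sox9. Summed markers of endothelium (0.08 to 0.24 RPKM), leukocytes (0.06 to 0.27), acinar cells (0.76 to 1.67) and fibroblasts (2.10 to 5.07) were low, and no marker of these 4 types exceeded 1 RPKM in every library.

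Among the transcription factors, Atf4, the central activator of the response, was one of the most abundant of the 39 genes. Atf4 (mm9 chromosome 15, 80085613 to 80087971) was measured at 165, 196, 149 and 161 RPKM in replicates 1 to 4. Atf5, a relative of Atf4 whose translation is also favoured by upstream reading frames, stood at 86.9, 53.0, 66.7 and 68.0 RPKM. Atf4 was the higher in 4 of 4 libraries; the log2(RPKM + 1) difference was 1.29 ± 0.41 (SD, n = 4), or 2.44-fold, and the RPKM ratio varied between 1.90 and 3.69. The ranges of the genes did not overlap.

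Ddit3 encodes CHOP, a factor associated with prolonged endoplasmic reticulum stress and cell death. Its transcript had 23.7, 21.9, 17.4 and 19.7 RPKM, 20.7 ± 2.7 RPKM on average (SD, n = 4). Ddit3 was lower than Atf4 in every library, with a log2 difference of -2.96 ± 0.15 (SD, n = 4), or 7.79-fold, and the ratio held between 0.112 and 0.144 in RPKM. The span of Ddit3 (chromosome 10, 126727848 to 126733344) overlaps that of Mars by 69 bases on the opposite strand.

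The effectors differed widely in level. Asns, which makes asparagine from aspartate and glutamine, was highest, with 160, 168, 92.9 and 109.6 RPKM (chromosome 6, 7625170 to 7643182). Trib3, a pseudokinase that binds ATF4 and CHOP, was lowest, with 15.9, 12.8, 5.01 and 5.40 RPKM (chromosome 2, 152163160 to 152169796), and was also the most variable effector, with an SD of 0.76 on the log2 scale. Both had higher values in replicates 1 and 2 than in replicates 3 and 4, without overlap. Asns lay 0.37 ± 0.29 below Atf4 on the log2 scale and was lower in 4 of 4 libraries, and Trib3 lay 17.2-fold below Atf4 (log2 difference -4.11 ± 0.66, SD, n = 4).

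Chac1, an enzyme that breaks down glutathione, had 36.5, 32.4, 17.4 and 17.4 RPKM (chromosome 2, 119176977 to 119180062). It followed the same division of the libraries, and replicates 3 and 4 differed from each other by 0.057%. The other effectors, which act on growth signalling through the kinase complex mTORC1, had their highest values outside replicates 1 and 2. Ddit4, an mTORC1 inhibitor induced by stress, had 81.6, 63.5, 79.7 and 85.9 RPKM, and Sesn2, a leucine sensor that restrains mTORC1, had 32.2, 21.2, 40.7 and 38.3 RPKM. Replicate 2 was lowest for both, and for Sesn2 replicates 3 and 4 were the higher pair. Over the 5 effectors the median lay 0.55 ± 0.26 below that of the cytosolic synthetases on the log2 scale and was lower in 4 of 4 libraries, a difference between lists that was described and not tested.

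The 4 eIF2α kinases differed in level and in their spread over libraries. Eif2ak3, the endoplasmic reticulum kinase PERK, whose loss causes diabetes in mice and in people, had 46.1, 39.2, 31.8 and 32.3 RPKM. Eif2ak4, the kinase GCN2 that senses uncharged tRNA, had 46.1, 40.3, 32.8 and 30.7 RPKM. In each library these 2 transcripts stood at nearly the same level, with RPKM ratios between 0.967 and 1.05 and a log2 difference of -0.0042 ± 0.054 (SD, n = 4; exact sign-flip permutation test, two-sided p = 0.875).

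Eif2ak1, the heme-regulated kinase HRI, had 23.4, 23.0, 29.0 and 30.4 RPKM. Eif2ak2, the kinase PKR that binds double-stranded RNA and is induced by interferon, had 12.3, 21.1, 5.33 and 4.08 RPKM (chromosome 17, 79251889 to 79281912). Eif2ak2 varied most of all 39 genes, with an SD of 0.98 on the log2 scale and a 5.17-fold range, and it was lower than Eif2ak1 in 4 of 4 libraries by a log2 difference of -1.47 ± 1.17 (SD, n = 4). In replicate 2 the 2 kinases were close, at a ratio of 0.919, whereas in replicate 4 the ratio was 0.134. Part of the Eif2ak1 transcript (12.1% of its 50-base words) also occurs in other genes, Aimp2 foremost, and its span overlaps Ankrd61 by 4326 bases on the opposite strand.

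The phosphatase subunits return eIF2α to its unphosphorylated form. Ppp1r15a, the stress-induced subunit GADD34, had 24.5, 19.7, 21.7 and 26.7 RPKM, and Ppp1r15b, the constitutive subunit CReP, had 39.1, 39.2, 30.96 and 30.94 RPKM. Ppp1r15a was lower in 4 of 4 libraries, with a log2 difference of -0.58 ± 0.31 (SD, n = 4). The share of Ppp1r15b words found in other genes was 10.7%.

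Substrate and exchange factor of the pathway, described as companions of the 39 genes, were also transcribed. Of 8 genes for eIF2 subunits and for eIF2B, the exchange factor that phosphorylated eIF2 blocks, 7 lay above 10 RPKM in limma's test and 1 below it. The highest was Eif2b5, the catalytic subunit of eIF2B, at 52.9 RPKM, and the lowest Eif2s3x, the X-linked eIF2γ gene, at 3.50 RPKM. Of the Eif2s3x words, 36.2% occur in other genes, so its level is uncertain, and the Y-linked copy Eif2s3y was present in replicates 1 and 2 only.

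In serine synthesis the 3 consecutive enzymes stood at different levels. Phgdh, which catalyses the first step from 3-phosphoglycerate, had 8.50, 23.4, 13.1 and 12.7 RPKM. Psat1, the aminotransferase of the second step, had 61.7, 85.6, 29.6 and 31.8 RPKM (chromosome 19, 15979621 to 15999515) and varied most within the group, with an SD of 0.73 on the log2 scale. Psph, the phosphatase of the last step, had 18.8, 32.4, 24.4 and 27.9 RPKM.

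Psat1 exceeded Phgdh in every library, with a log2 difference of 1.73 ± 0.73 (SD, n = 4) and an RPKM ratio of 7.26 in replicate 1 and 2.26 in replicate 3. The low level of Phgdh is uncertain, because 63.1% of its 50-base words also occur in 23 other genes and the handling of reads with several matches is not given in the sources used here. For Psph the share was 23.9%, all with Cct6a. Phgdh and Psph were highest in replicate 2 and lowest in replicate 1.

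Shmt2, which turns serine into glycine in mitochondria and charges folate with a carbon unit, was the steadiest of the 39 genes, with 41.5, 40.5, 39.9 and 39.5 RPKM and an SD of 0.03 on the log2 scale. Mthfd2, the mitochondrial dehydrogenase that uses this folate, had 42.4, 39.8, 20.5 and 22.5 RPKM. Both enzymes stood level in replicates 1 and 2, and Mthfd2 was at 0.513 and 0.570 of Shmt2 in replicates 3 and 4, so that the mean log2 difference was -0.43 ± 0.50 (SD, n = 4; exact sign-flip permutation test, p = 0.375). The median of the 5 genes lay 0.72 ± 0.24 below that of the cytosolic synthetases on the log2 scale and was lower in 4 of 4 libraries.

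All pairs of genes named above and the pair Farsa and Farsb make up 10 comparisons within a library, each tested with the same exact two-sided sign-flip permutation test. With 4 libraries the smallest p it can give is 0.13 (rounded). All 7 comparisons with 1 direction in every library had this value, which became 0.179 after Benjamini-Hochberg adjustment over the 10. None could therefore pass 0.05, and the values and their SD carry these comparisons.

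The 20 cytosolic synthetases were all above 10 RPKM in limma's test, with a median of 53.5 RPKM. Sars, for serine, was highest, with 174, 185, 168 and 175 RPKM (chromosome 3, 108229529 to 108248087), and varied by an SD of only 0.058 on the log2 scale. Vars, for valine, was lowest, with 37.3, 21.6, 30.7 and 30.7 RPKM (chromosome 17, 35137851 to 35153274). Eprs, a fused enzyme for glutamate and proline, varied most, with 61.7, 57.9, 32.5 and 25.4 RPKM and an SD of 0.61 on the log2 scale.

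After Sars, the most abundant were Gars for glycine (152.6 ± 31.2 RPKM, SD, n = 4) and Wars for tryptophan, an interferon-induced enzyme (110.0 ± 9.0 RPKM). Gars is the gene of both the cytosolic and the mitochondrial glycine enzyme, so its level serves both compartments; the same holds for Kars and lysine (61.1 ± 7.7 RPKM). Qars for glutamine averaged 98.3 ± 19.2 RPKM, Nars for asparagine 84.2 ± 24.5, Rars for arginine 75.7 ± 20.7 and Aars for alanine 70.0 ± 6.7. The other 12 had means between 30.1 and 56.0 RPKM.

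Between Sars and Gars the order changed with the library, since Gars was higher in replicate 2, at 196 against 185 RPKM. Aars shares 22.4% of its words with Exosc6, whose deposited span it overlaps by 533 bases on the same strand, and Iars shares 8.61% with other genes and Hars 7.53% with Hars2. Here and for the other genes, words come from GENCODE transcripts, which need not match the gene models behind the deposited RPKM. No words of Sars, Gars, Wars or Vars occurred in other genes. In all, 9 of the 39 genes shared over 5% of their words with another annotated gene, which for Ddit3 (8.92%) was mostly a further entry of the same symbol, and 25 shared none.

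Phenylalanyl-tRNA synthetase is built from equal numbers of 2 different subunits, encoded by Farsa (catalytic) and Farsb. Farsa had 48.9, 33.8, 59.0 and 64.8 RPKM and Farsb had 55.5, 61.6, 45.3 and 51.4 RPKM. The means were close, at 51.6 and 53.4 RPKM, but the subunits moved apart by library. Farsa was the lower one in replicates 1 and 2 and the higher one in replicates 3 and 4, and the mean log2 difference was -0.08 ± 0.57 (SD, n = 4; exact sign-flip permutation test, p = 0.875). The transcripts also differ in GC content, at 56.6% for Farsa and 45.9% for Farsb. Replicates 1 and 2 minus 3 and 4 came to -0.59 for Farsa and 0.27 for Farsb on the log2 scale. After subtracting the median of genes of similar GC content, described below, these became -0.36 and -0.15. The part of GC content was not tested.

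The synthetases were also divided in 3 ways, each with a mean difference of medians smaller than its SD over the 4 libraries. The multi-synthetase complex holds 8 of the enzymes, and their median minus that of the other 12 was -0.04 ± 0.22 on the log2 scale, positive in 2 of 4 libraries. Class I enzymes minus class II enzymes, which differ in the fold of their catalytic domain, came to -0.30 ± 0.32, negative in 3 of 4 (Eprs, which holds both, was left out), and to -0.42 without replicate 1. The 12 enzymes commonly listed as targets of the amino acid response minus the other 8 came to -0.02 ± 0.22, positive in 2 of 4, but to 0.29 with list means in place of medians. The 3 scaffold proteins of the complex were all above 10 RPKM, Aimp1 highest at 62.8 and Aimp2 lowest at 23.4 RPKM.

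Transcripts of the cytosolic enzymes were more abundant than those of the mitochondrial enzymes for the same amino acid, with leucine as the exception. Of 17 mitochondrial synthetase genes, 7 lay above 10 RPKM, 5 below and 5 on neither side in limma's test, against 35.9% above and 48.2% below among all genes tested, and their median was 9.52 RPKM. The cytosolic median was higher in 4 of 4 libraries, with a log2 difference of 2.49 ± 0.13 (SD, n = 4), or 5.64-fold. Lists were compared by their medians, with no test over genes.

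Gene by gene, 17 of 18 cytosolic and mitochondrial pairs had the higher value on the cytosolic side in every library, with a median ratio of 4.22 over the 18, in which Eprs and Fars2 each enter 2 pairs. The ratio was largest for tryptophan, where Wars at 110.0 RPKM stood 51.4-fold above Wars2 at 2.14 RPKM. For leucine, Lars averaged 53.6 RPKM and Lars2 80.4 RPKM, and the ratio lay between 0.569 and 0.779 in the 4 libraries, below 1 in each. Lars2 itself had 75.4, 123.7, 69.5 and 52.9 RPKM in replicates 1 to 4. Words shared with other genes were not searched for the mitochondrial synthetases, so the level of Lars2 and the leucine exception are uncertain. The smallest ratio above 1 was that of Tars, 1.54 on average and 1.10 in its lowest library.

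**Figure D3:**
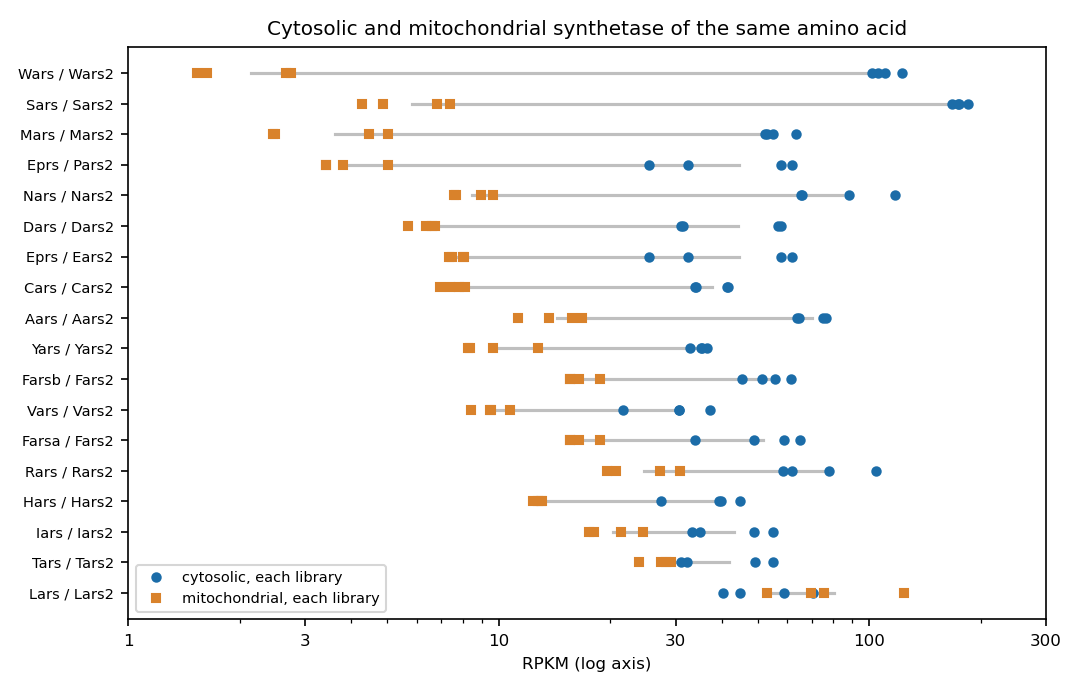
RPKM (log axis) of the cytosolic synthetase gene (circles) and the mitochondrial one (squares) of the same amino acid in each of the 4 libraries, with a grey line between the means and pairs sorted by ratio. Wars and Wars2 lie farthest apart (51.4-fold), and in the lowest row Lars lies left of Lars2 (ratio 0.666).

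Across libraries the 39 genes varied about as much as other genes of their level. The median SD on the log2(RPKM + 1) scale was 0.29, against 0.32 for the 11967 genes of at least 1 RPKM and 0.30 for the 7492 genes of at least 10 RPKM. Much of this spread ran between replicates 1 and 2 on the one hand and replicates 3 and 4 on the other, a division that the whole libraries and the Y-linked genes also show. Markers of cell types moved with it in part. Ins1 had 107, 222, 481 and 523 RPKM, Krt7 had 466, 482, 802 and 789 RPKM, and the glucose transporter gene Slc2a2 had 154, 135, 94.9 and 96.7 RPKM. Of the 6 beta-cell markers 1 was higher and 2 lower in replicates 1 and 2 without overlap, and of the 6 biliary markers 3 were higher and 1 lower. Summed, the beta-cell markers came to 3427 and 8932 RPKM in replicates 1 and 2 and to 8956 and 10061 RPKM in replicates 3 and 4, and the biliary markers to 1069 and 2169 RPKM in replicates 1 and 2 and to 1494 and 1565 RPKM in replicates 3 and 4. Their part in the values of the 39 genes was not tested. The labels give these library pairs no meaning, so the pattern is described and not tested.

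In 23 of the 39 genes both values of replicates 1 and 2 were above both of replicates 3 and 4, as in 41.2% of the 11967 genes of at least 1 RPKM. In 6 genes both were below, as in 29.7% of those genes, and 10 genes overlapped. Replicates 1 and 2 held the highest value of 14 and 15 of the 39 genes, replicate 3 that of 1 and replicate 4 that of 9; over all genes of at least 1 RPKM the shares of the highest value were 34.3%, 30.1%, 13.9% and 21.7%. The level of the libraries as a whole enters these counts, because the library medians of 11108 genes at or above 1 RPKM in every library were 0.20 higher on the log2 scale in replicates 1 and 2. The difference of the median gene, over 11842 genes of at least 1 RPKM on average, was 0.09.

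Scaled to the same library median, 17 genes were higher in replicates 1 and 2 and 13 were lower, against 31.8% and 40.2% of all genes. The 17 were among the 23 and comprised the effectors Trib3, Asns and Chac1, the kinases Eif2ak2, Eif2ak3 and Eif2ak4, Ppp1r15b, Psat1, Mthfd2 and the synthetases Cars, Dars, Eprs, Iars, Lars, Nars, Rars and Tars. Sesn2, Eif2ak1, Aars, Farsa, Kars and Qars were lower in replicates 1 and 2 under both scalings. Atf4, Ddit3, Gars, Farsb and Mars overlapped once scaled, and Shmt2 changed direction. Ddit4, Ppp1r15a, Hars, Sars, Wars and Yars, which overlapped as deposited, were lower in replicates 1 and 2 once scaled.

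Sizes of the difference were largest for Eif2ak2, at 1.59 on the log2 scale, Trib3 at 1.30, Psat1 at 1.22, Eprs at 1.03, Chac1 at 0.94 and Mthfd2 at 0.91. On the other side stood Farsa at -0.59, Sesn2 at -0.58 and Qars at -0.48. Atf4 itself differed by 0.21 as deposited and by 0.01 once scaled to the same library median. Against the median of genes of similar GC content, described below, the deposited difference of Atf4 was 0.40 higher. By group, 11 of the 20 cytosolic synthetases were higher in replicates 1 and 2 and 4 lower as deposited, and 8 and 8 once scaled. The shares over all genes of at least 1 RPKM were 41.2% and 29.7% as deposited, and 31.8% and 40.2% once scaled. Once scaled, 40% of the synthetases were higher, and the lower ones lay near the share of all genes.

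**Figure D4:**
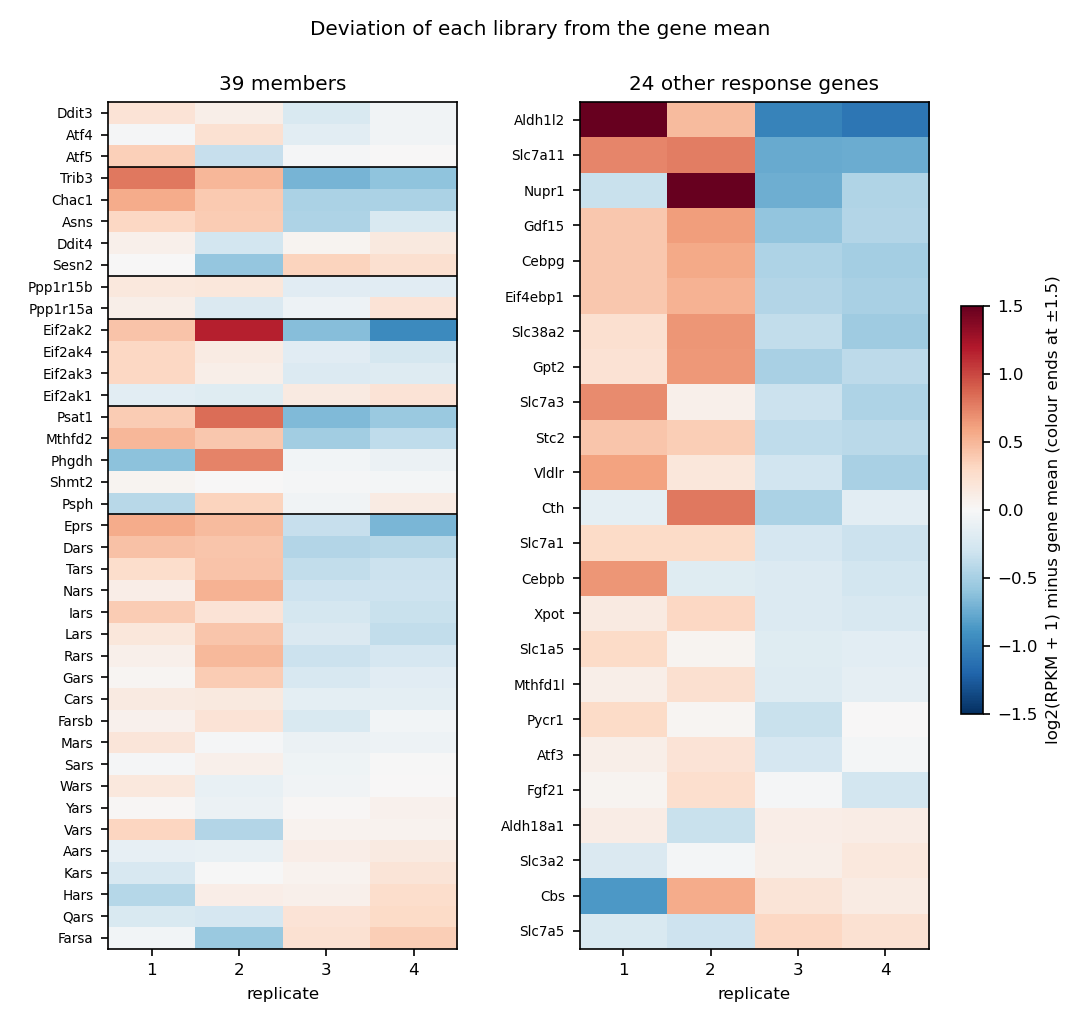
Deviation of each library from the gene's mean, in log2(RPKM + 1), for the 39 genes by role (left) and 24 other amino acid response genes (right); red is above and blue below the mean, and colours end at ±1.5. Columns 1 and 2 are red and columns 3 and 4 blue for Trib3, Chac1, Eprs and others, and the reverse for Qars and Farsa.

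Base composition moved with the same division. Over 11842 genes with a transcript, the difference between the library pairs fell as the GC content of the transcript increased, with Spearman's rho of -0.57, and rho was -0.52 over the 39 genes and -0.70 over the 20 synthetases. These are descriptions across genes that share the 4 libraries. After subtracting the median of genes in the same of 20 GC bins, 22 of the 23 genes higher in replicates 1 and 2 kept their sign, the exception being Farsb, and 5 of the 6 lower ones did, the exception being Aars. The size shrank by over 1.5-fold in 8 of the 23 and 3 of the 6, and the median of the 23 was 0.40 after subtraction and 0.59 before. Dars came to 0.0080 after subtraction, against 0.85 before, Rars to 0.14 against 0.57, Lars to 0.21 against 0.59 and Nars to 0.30 against 0.62. In others of the 23 the size grew. Atf4 came to 0.40 against 0.21, Ddit3 to 0.49 against 0.29 and Cars to 0.47 against 0.28. Trib3 came to 1.56 against 1.30 and Chac1 to 1.20 against 0.94. Above the median of their GC bin lay 32 of the 39 genes, 15 of the 20 synthetases among them. By definition, a bin's median leaves as many of all its genes above as below. Trib3 and Chac1 have GC-rich transcripts (58.2% and 57.4%), and they differed in the direction opposite to most genes of that composition. The part that GC content, the Y-linked difference or library preparation has in these values was not tested.

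**Figure D5:**
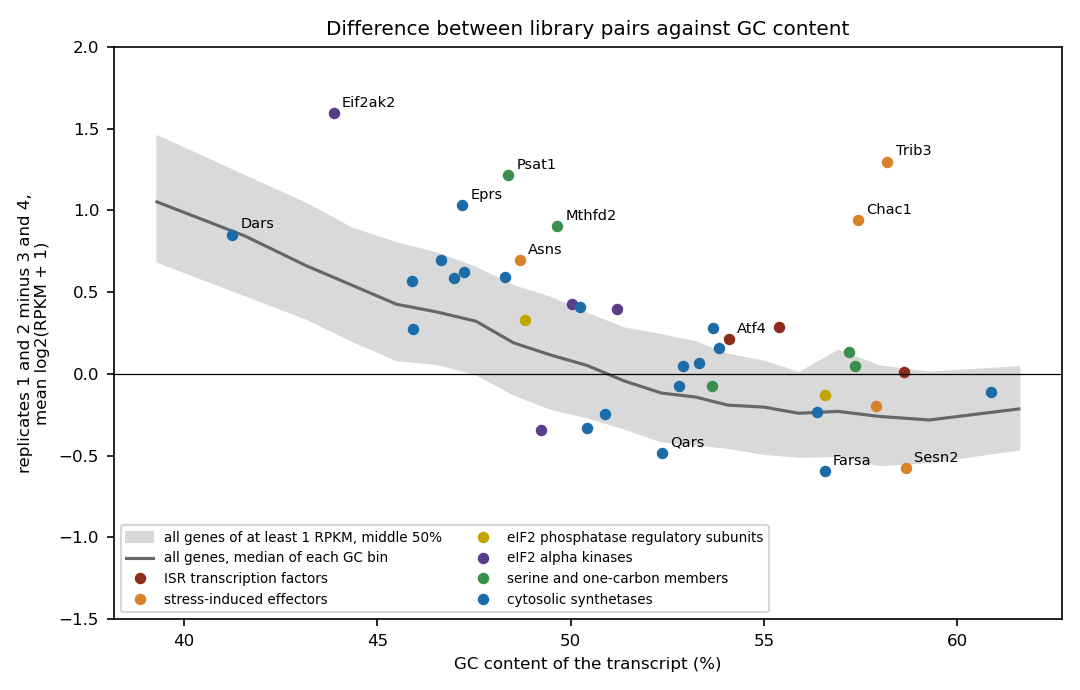
Mean log2(RPKM + 1) of replicates 1 and 2 minus that of replicates 3 and 4 against the GC content of the transcript, for the 39 genes (points, coloured by role) and for all genes of at least 1 RPKM (line, median of each of 20 bins; band, middle 50%). The line falls with GC content, and Trib3 at 1.30 and Chac1 at 0.94 stand above the band at 58.2% and 57.4% GC.

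The rest of the amino acid response, taken from a list of 24 further genes chosen by known function, covered a wide range of levels. Of these, 19 lay above 1 RPKM and 10 above 10 RPKM in limma's test, where 65.0% and 35.9% of all genes tested lay. Another 8 lay below 10 RPKM (48.2% of all) and 6 on neither side, and the median was 13.3 RPKM. Slc3a2, the heavy chain shared by several amino acid transporters, was highest at 129.7 RPKM, and Fgf21, a secreted hormone of the stress response, lowest at 0.59 RPKM. As deposited, 20 of the 24 were higher in replicates 1 and 2 and 2 lower (41.2% and 29.7% of all genes of at least 1 RPKM). Scaled to the same median, 14 were higher and 3 lower (31.8% and 40.2% of those genes). Slc7a3 (0.70 RPKM) and Fgf21 (0.59 RPKM) lay below the 1 RPKM limit of these shares, and both counted as higher in replicates 1 and 2 as deposited. Of the 8 genes among the 39 with the TGATGNAA core, 6 were higher and 1 lower as deposited, and 5 higher and 2 lower once scaled. Of the 23 with a promoter and no core, 12 were higher and 5 lower as deposited, and 7 higher and 9 lower once scaled, a contrast that was not tested.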

How the data were processed

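Gene expression was measured by RNA sequencing (TruSeq v2 kit) in 4 libraries. The authors deposited 1 table of RPKM values per gene symbol, rounded to 2 decimals; per the submitters' processing notes, CASAVA 1.8.2, Bowtie and build mm9 were used. The counting program, its strand setting and how reads matching several genes were assigned were not given in the sources used here. Another 6 columns of per-sample values match no sample by name and were left out. RPKM holds no read total, so depth was estimated from the steps between low values of olfactory genes spanning under 1100 bases (tolerance 0.0051 RPKM). Of 980 such genes, only 32, 26, 14 and 17 had low values that could be used in replicates 1 to 4, so the depths are rough. Floors of 3 reads cover counting error only.

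Levels were tested against 1 and 10 RPKM on log2(RPKM + 1) with limma 3.58.1 in R 4.3.3 (mean-variance trend), over the 16919 genes with a value above 0 in some library (3458 had none). The procedure was tested on simulated data. The pseudocount of 1 understates changes of low genes. Differences within a library used log2(RPKM + 1), with exact sign-flip permutation tests for 10 gene pairs and no test for 6 differences between list medians. The 39 genes, the lists and the pairs were chosen with earlier results of these data known. In each role the highest, lowest and most variable gene is given by library, together with the genes of the pairs, the kinases and the main response genes; of other lists the highest and lowest gene are named, and Tars and other genes beyond this rule were named after their values were seen. Transcript GC content and words of 50 bases shared with other genes came from GENCODE transcripts matched by RefSeq identifier, and promoters from RefSeq (GRCm38.p6), matched by transcript, with the motif match nearest each start shown and 1 further item not reported here; coordinates of genes are mm9, as deposited. Alternatives were another pseudocount (0.1), a filter at a mean of 0.1 RPKM, no trend, scaling to the same median, list means, each replicate left out and, added after seeing the data, replicates 3 and 4 averaged, GC bins, and the scaled counts of library pairs.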

Additional observations from a re-analysis of the deposited data

How the results depend on the processing

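The counts of 39 genes above 1 RPKM and 36 above 10 RPKM were the same under every alternative run for them (pseudocount 0.1, filter at 0.1 RPKM, no trend, same-median scaling, each replicate left out, and replicates 3 and 4 averaged). Leaving out each replicate in turn moved differences near 0 across it, class I minus class II excepted. The log2 difference Eif2ak3 minus Eif2ak4 ranged from -0.029 to 0.0098, Farsa minus Farsb from -0.23 to 0.17, the complex minus the other cytosolic synthetases from -0.13 to 0.046, class I minus class II from -0.42 (without replicate 1) to -0.18, and the listed response targets minus the others from -0.10 to 0.067. With list means in place of medians, the listed targets minus the others came to 0.29 in place of -0.02, and the serine and folate genes minus the synthetases to -1.01 in place of -0.72. Scaling to the same median, an alternative added after seeing the data, raised the number of genes higher in both replicates 3 and 4 to 13, against 6 as deposited. It lowered the number higher in both replicates 1 and 2 to 17, against 23 as deposited. The cause of these changes was not tested beyond the alternatives themselves. The other 99 values of main comparisons and 195 values of single genes kept their direction and call or moved by less than 1 SD, counts excepted. Counts were judged by a fold limit and not by SD, and the fall to 17 is among these 99 values. No paired analysis was possible because there is only 1 group. With 4 libraries no sign-flip test can reach 0.05, and values of genes that share sequence with others (Phgdh, Psph, Aars) depend on how reads were assigned.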
